A study of Mus musculus with 18 samples.

Results

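The reference states of mouse C3H10T1/2 cells in this series were set against each other across all measured genes. They are a line that stably expresses FLAG-HA-tagged wild-type histone H3.3 (2 libraries, called wild-type below) and parental cells that received a scramble siRNA (3 libraries, called control below). C3H10T1/2 is an established line of multipotent mesenchymal cells from mouse embryo that can be driven towards cartilage, bone or fat. The series holds 18 RNA-seq libraries in 6 groups, and these 5 libraries serve as the baselines of the 2 cultured experiments described here. A further cultured group, H3.1K36M cells, is not described. The tagged wild-type line is the baseline of H3.3K36M cells (n = 2), which stably carry FLAG-HA-tagged H3.3 with lysine 36 replaced by methionine. The scramble siRNA is the baseline of HMT siRNA cells (n = 3), parental cells in which siRNAs targeted Nsd1, Nsd2 (Whsc1 in the table) and Setd2, enzymes that methylate H3K36. All 4 groups were at passage 10 to 15 and grew in the same serum-containing medium, per the labels. The 2 baselines differ in the transgene and in the siRNA treatment at once, so a difference between them cannot be assigned to either, and the 2 cannot be told apart. The tagged cells are a single line, and whether it is 1 clone is not given in the sources used here. The labels do not say whether libraries of a group came from separate cultures, so the p-values refer to library-to-library spread only, and that spread may be technical. Genes entered the comparison where the normalised estimated count was at least 10 in at least 2 of the 5 libraries, which kept 12496 of 20325 genes.

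Histone H3.3 is the H3 variant that is made and placed into chromatin throughout the cell cycle, while the replication-dependent histone genes supply H1, H2A, H2B, H3 and H4 in S phase. Proliferating cells express the genes of DNA replication and of mitosis in successive waves, and the inhibitors encoded at the Cdkn2a and Cdkn2b genes restrain entry into S phase. In mesenchymal progenitors, Sox9 with Sox5 and Sox6 directs the cartilage matrix genes, and Notch, Wnt, BMP, FGF and IGF signals steer the choice between cartilage, bone, tendon and fat. These programmes are described below by lists of known members.

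The wild-type libraries held 25322433 and 23343297 estimated reads and the control libraries 16050581, 19346834 and 13993307, so the wild-type libraries were deeper. They also differed in a trait of the counting: among genes at 1 to 20 reads, 76.3% to 77.9% of estimated counts were whole numbers (within 0.01) in the wild-type and 84.7% to 85.1% in the control libraries. The part of either in the differences below was not tested. Stromal markers were abundant in both states. Vim, an intermediate filament of mesenchymal cells, stood at 188582 and 186852 in the wild-type and 136199, 142316 and 135053 in the control libraries. Col1a2, a chain of type I collagen, was at 212504 and 209411 in the wild-type and 211279, 207550.0 and 199529 in the control libraries. Of 15 stromal markers, 14 passed the filter, and 6 were higher and 3 (Prrx1, Thy1 and Twist1) lower by the test. The other 5 were not called. After quantile normalisation 4 were higher and 5 lower. The summed level of the 15 markers was 1113960.0 to 1117630.0 in the wild-type and 882487 to 942491 in the control libraries. The defining markers Ptprc and Emr1 of leukocytes and macrophages, Epcam of epithelium, Hbb-b1 of red cells, and Myod1, Myf5, Myog and Pax7 of skeletal myoblasts were listed at 0 in all 5 libraries. Other markers of these cell types were present at low levels. The 8 macrophage markers in the table summed to 127 to 138 in the wild-type and 190 to 232 in the control libraries (3 tested, 1 higher, 1 lower). The 8 epithelial markers summed to 276 to 307 against 83.5 to 87.8 (2 tested, both higher) and the 7 myoblast markers to 181 to 186 against 107 to 126 (3 tested, 1 higher). Endothelial markers (8 listed) summed to 1105 to 1184 against 748 to 769 (3 tested, 2 higher, 1 lower), Schwann and neural crest markers (5 listed) to 2332 to 2426 against 1129 to 1342 (3 tested, 2 higher), and red cell markers (6 listed, none tested) to 8.53 to 10.9 against 5.02 to 6.07. Without the second wild-type library 1 of the 3 Schwann and neural crest markers was higher. With either wild-type library left out 2 endothelial markers (1 higher) and 1 epithelial marker (higher) passed the filter. The part of such cells in the results was not tested. In bulk RNA, fewer cells of a type and less RNA per cell cannot be told apart.

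The 2 baselines differed at many genes, mostly by small amounts. At a limma adjusted p under 0.05, 3650 genes were higher in the wild-type line (29.2% of those tested) and 3422 were lower (27.4%), together 56.6%. Of these, 856 were at least 2-fold higher (6.85%) and 649 at least 2-fold lower (5.19%). Every count of called list members in this text is to be read against these shares. The wild-type libraries lay above every control library for 4646 genes (37.2%) and below every control library for 4260 genes (34.1%). Lack of overlap in a gene named below is to be read against these shares. Many named genes were chosen for large changes, and the largest were required not to overlap. The median log2 fold change of all tested genes, wild-type minus control, was 0.01. Pairs of libraries of the same group differed by a median of 0.0615 to 0.103 on the log2 scale, and pairs across the groups by 0.244 to 0.253. All fold changes are on the scale log2(value + 1), which understates the change of low genes.

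**Figure D1:**
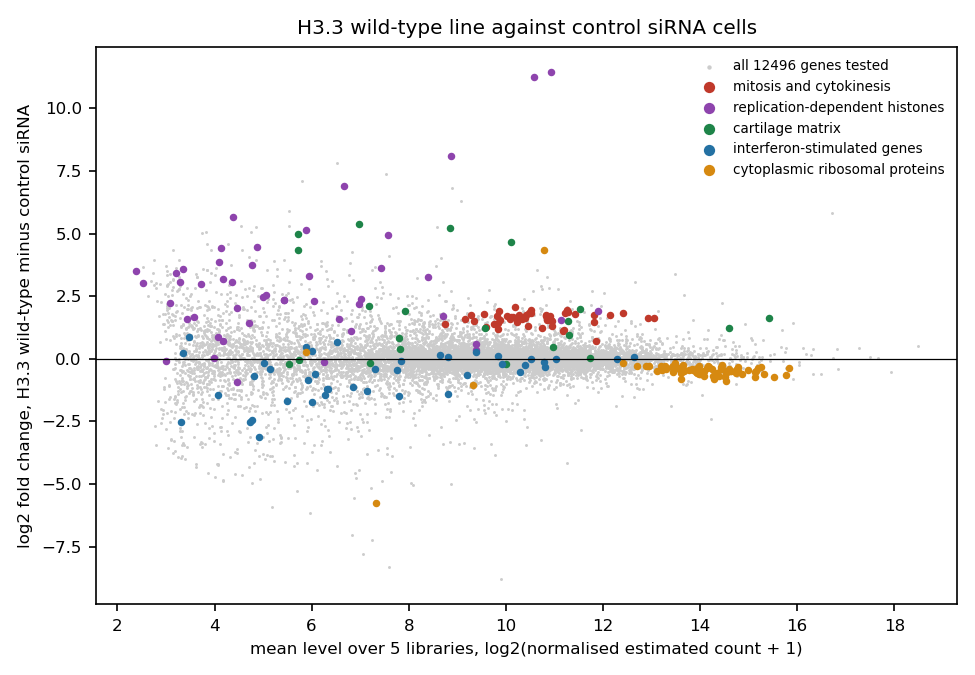
Each point is 1 of the 12496 genes tested; the horizontal axis is its mean level over the 5 libraries as log2(normalised estimated count + 1) and the vertical axis the log2 fold change, wild-type minus control. Mitotic genes sit in a band above 0, replication-dependent histone genes reach the top of the plot, and ribosomal protein genes lie in a band under 0 with a median of -0.46.

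The genes of mitosis were higher in the wild-type line together. All 48 mitosis and cytokinesis genes of the list passed the test as higher, 47 of them at least 2-fold, against 29.2% and 6.85% of all genes, and their median log2 fold change was 1.63 against 0.01. Their summed level was 153845 to 163230.0 in the wild-type and 49489 to 56649.7 in the control libraries. Nuf2, which joins spindle microtubules to the kinetochore, stood at 2171 and 2138 in the wild-type and 537, 489 and 528 in the control libraries. The groups lay far apart (log2 fold change 2.06 ± 0.06 (SE), limma adjusted p = 4.45e-14). Cenpf, a kinetochore protein of late cell cycle phases, was at 4507 and 4255 in the wild-type and 1309, 995 and 1113 in the control libraries (log2 fold change 1.95 ± 0.10 (SE), limma adjusted p = 5.38e-08). Nusap1, a spindle microtubule binder, was at 2721 and 2539 in the wild-type and 699, 653 and 702 in the control libraries (log2 fold change 1.94 ± 0.06 (SE), limma adjusted p = 4.45e-14). Cenpa, the centromeric H3 variant, reached 1674 and 1611 in the wild-type and 498, 453 and 374 in the control libraries (log2 fold change 1.90 ± 0.10 (SE), limma adjusted p = 2.17e-10). In each of these 4 genes both wild-type libraries exceeded all control libraries by more than the spread within either group. Mki67, which encodes the proliferation marker Ki-67, read 13194 and 12749 in the wild-type and 4858, 3716 and 4176 in the control libraries (log2 fold change 1.62 ± 0.10 (SE), limma adjusted p = 1.23e-05), and the first control library was the highest of its group.

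Promoter sequences are shown for 3 of the mitotic genes because the list moved together and because late cell cycle genes are known to carry a cell cycle homology region beside CCAAT boxes. The stretches are the 150 bases before the RefSeq start in GRCm38.p6, each printed 5′ to 3′ in the direction of the gene, and capitals mark the letters TTTGAA or CCAAT on either strand (TTCAAA and ATTGG when read on the other). Prc1 (a midzone bundling protein of cytokinesis) is at chr7:80294326-80294475, forward strand, Ect2 (the guanine exchange factor that starts the cleavage furrow) at chr3:27153879-27154028, reverse strand, and Top2a (the topoisomerase that untangles sister chromatids) at chr11:99024190-99024339, reverse strand.
Prc1: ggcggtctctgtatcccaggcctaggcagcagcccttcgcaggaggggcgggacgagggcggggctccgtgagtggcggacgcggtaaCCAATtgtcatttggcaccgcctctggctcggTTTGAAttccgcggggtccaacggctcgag
Ect2: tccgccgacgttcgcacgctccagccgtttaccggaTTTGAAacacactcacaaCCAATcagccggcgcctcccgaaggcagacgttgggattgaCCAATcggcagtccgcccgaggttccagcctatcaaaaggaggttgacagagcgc
Top2a: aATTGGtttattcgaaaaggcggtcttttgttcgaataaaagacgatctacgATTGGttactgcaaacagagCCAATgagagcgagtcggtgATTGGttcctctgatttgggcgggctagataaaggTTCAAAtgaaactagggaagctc
Within 300 bases around the start (250 before and 50 after), TTTGAA on either strand was found in 29 of the 42 mitosis genes that had a promoter in the table (69.05%), in 1438 of the 9980 tested genes with one (14.41%) and in 17.89% of all 32851 promoters of the table. CCAAT on either strand was found in 30 of the same 42 (71.43%), in 43.52% of tested genes and in 37.41% of all promoters. Other lists held the letters as well. TTTGAA was found in 5 of 37 promoters of the DNA replication list (13.51%), in 17 of 43 replication-dependent histone promoters (39.53%), 7 of 10 in the H2B class (70.0%), and in 8 of 32 interferon-stimulated gene promoters. CCAAT was found in 22 of 37 replication (59.46%), 36 of 43 histone (83.72%) and 11 of 32 interferon-stimulated gene promoters (34.38%). The 2 motifs do not overlap in the stretches printed, and a match is a description of the letters only. Prc1 itself was at 4899 and 4643 in the wild-type and 1489, 1279 and 1338 in the control libraries (log2 fold change 1.80 ± 0.06 (SE), limma adjusted p = 1.3e-13). Ect2 was at 1976 and 1848 in the wild-type and 637, 527 and 650.3 in the control libraries (log2 fold change 1.66 ± 0.08 (SE), limma adjusted p = 1.51e-11). Top2a was at 14775 and 13937 in the wild-type and 5133, 4378 and 4444 in the control libraries (log2 fold change 1.63 ± 0.06 (SE), limma adjusted p = 1.55e-12). The groups did not overlap for any of them. These 3 were chosen for display after their values were seen. They were taken by size of change from list members whose 150 bases held both motifs. Finding the motifs in the printed stretches was thus fixed by the choice.

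DNA replication genes were higher too, by less. Of 46 replication and S phase genes, 44 passed the test as higher, 14 of them at least 2-fold, none passed as lower, and the median log2 fold change was 0.81. Mcm5, a subunit of the replicative helicase, was at 3179 and 2934 in the wild-type and 1205, 1127 and 1133 in the control libraries (log2 fold change 1.40 ± 0.06 (SE), limma adjusted p = 1.1e-12). Tk1, the S phase thymidine kinase, was at 2074 and 1934 in the wild-type and 779, 740.3 and 664 in the control libraries (log2 fold change 1.46 ± 0.07 (SE), limma adjusted p = 1.05e-11). Ccne2, the cyclin E2 of S phase entry, was at 477 and 503 in the wild-type and 187, 211 and 211 in the control libraries (log2 fold change 1.27 ± 0.10 (SE), limma adjusted p = 5.7e-09). The groups did not overlap in any of these 3. Of the 2 members that did not pass, E2f1, a transcription factor of the G1 to S transition, was at 1094 and 1057 in the wild-type and 1192, 1109 and 1086 in the control libraries (limma adjusted p = 0.345). Orc6, an origin recognition subunit, was at 743 and 716 in the wild-type and 663, 670.1 and 675 in the control libraries (limma adjusted p = 0.119).

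Replication-dependent histone genes were higher in the wild-type line, some by wide margins. Of 64 listed genes 47 passed the filter, 39 were higher and none was lower by the test, and the median log2 fold change was 2.48, or 2.41 without the genes listed at 0 throughout a group. The filter let in genes that were high in 1 group only, so these counts describe the genes that passed and not the family. With 1 wild-type library left out 30 rather than 47 could be tested, because genes high in that line alone then fail the filter. Of these 30, 23 were higher and 1 lower without the first library, and 22 were higher without the second. By class, the H3 genes summed to 10446 to 10998 in the wild-type and to 49.5 to 64.3 in the control libraries, with 7 of 9 tested members higher. The H1 genes summed to 7396 to 7605 against 1825 to 2057 (4 of 4 higher), the H2A genes to 2097 to 2121 against 1225 to 1316 (8 of 11), the H2B genes to 5060 to 5304 against 1724 to 1878 (10 of 12) and the H4 genes to 1162 to 1210 against 106 to 143 (10 of 11). Of the tested genes, 5 of 9 H3, 7 of 11 H4, 2 of 11 H2A, 2 of 12 H2B and 0 of 4 H1 genes were under 10 in every control library and so passed through the wild-type level alone. The sums are therefore given class by class and not compared, and most of the H3 sum came from Hist1h3a and Hist1h3b.

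Hist1h3a stood at 5025 and 4775 in the wild-type and 4.46, 0 and 0 in the control libraries. Hist1h3b stood at 3804 and 3811 in the wild-type and 0, 2.87 and 0 in the control libraries. Both were therefore high in the tagged line and at a few reads or 0 in the scramble siRNA cells, so no fold is given. The test gave limma adjusted p = 0.00174 for Hist1h3a and limma adjusted p = 5.26e-06 for Hist1h3b. Hist1h3h was at 788 and 1529.6 in the wild-type and 6.66, 0.653 and 4.15 in the control libraries (limma adjusted p = 0.000725), with the second wild-type library the higher. Hist1h3i was at 219 and 276 in the wild-type and 0, 8.04 and 0 in the control libraries (limma adjusted p = 0.00178). The genes of this family are near-identical copies that the counting could split between rows, so the level of any 1 of them is uncertain. No row is named for the tagged histone, and its reads cannot be told apart from those of the cell's own H3 genes. The same 2 genes were at 6168 and 5294 (Hist1h3a) and 3624 and 3689 (Hist1h3b) in the H3.3K36M libraries, whose cells carry a tagged H3 as well. They were at 4.87, 4.21 and 2.93 and at 2.83, 0 and 0 in the HMT siRNA libraries, whose cells do not. The rows of the 2 genes that encode H3.3 itself were nearer: H3f3a at 17089.7 and 16864 in the wild-type and 13067, 14005 and 13959 in the control libraries (log2 fold change 0.31 ± 0.04 (SE), limma adjusted p = 1.37e-05). H3f3b was at 25081 and 24075 in the wild-type and 17398, 18094 and 17548 in the control libraries (log2 fold change 0.48 ± 0.04 (SE), limma adjusted p = 5.04e-08). The 2 groups did not overlap in either.

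**Figure D2:**
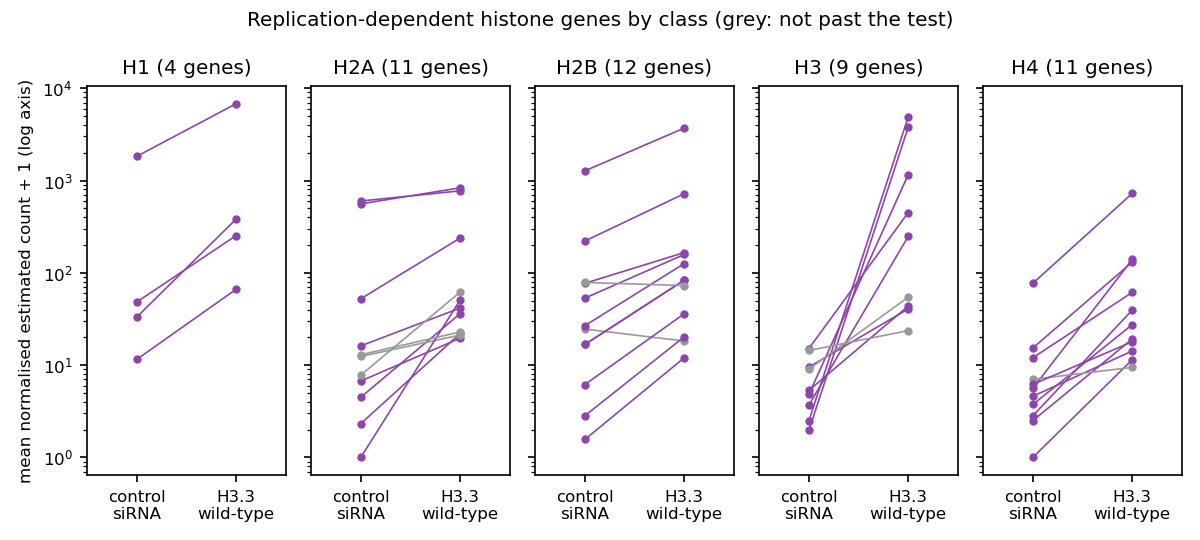
Each line joins the mean level of 1 replication-dependent histone gene in the control (n = 3) and wild-type (n = 2) libraries, as normalised estimated count + 1 on a log axis, in a panel per class; purple lines passed the test and grey ones did not. In the H3 panel 7 of 9 lines are purple and in the H1 panel 4 of 4, and the slopes vary widely within each class and overlap between classes.

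Promoters of 2 H2B genes are printed because this class is known for the octamer, the site of the Oct-1 factor in S phase; capitals mark ATTTGCAT. The stretches are again the 150 bases before the RefSeq start in GRCm38.p6: Hist1h2bg (RefSeq symbol H2bc8) at chr13:23571250-23571399, forward strand, and Hist1h2bk (H2bc12) at chr13:22035671-22035820, forward strand.
Hist1h2bg: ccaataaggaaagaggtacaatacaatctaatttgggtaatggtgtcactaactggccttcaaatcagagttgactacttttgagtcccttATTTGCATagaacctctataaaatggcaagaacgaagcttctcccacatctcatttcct
Hist1h2bk: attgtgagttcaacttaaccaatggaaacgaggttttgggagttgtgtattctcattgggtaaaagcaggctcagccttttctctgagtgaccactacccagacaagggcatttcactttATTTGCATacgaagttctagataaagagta
The 8 letters, on either strand, were found within the 300 bases of 6 of the 10 H2B genes with a promoter in the table (60.0%), of 6 of the 33 other histone genes (18.18%), of 1.613% of tested genes and of 1.735% of all promoters. Hist1h2bg was at 143 and 107 in the wild-type and 20.2, 38.5 and 18.5 in the control libraries (log2 fold change 2.30 ± 0.28 (SE), limma adjusted p = 2.06e-06). Hist1h2bk was at 689 and 749 in the wild-type and 234, 217 and 207 in the control libraries (log2 fold change 1.71 ± 0.09 (SE), limma adjusted p = 4.74e-11). The wild-type libraries were above all control libraries for both, and both were picked for display after their values were seen. The pick was limited to H2B genes whose 150 bases held the octamer, so its presence in them was fixed by the choice.

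Among the H3.3 genes, histone chaperones and linker histones, 9 of 16 were higher and 1, the chaperone subunit Ubn2, was lower. The call of Ubn2 was lost without the first wild-type, the first control or the third control library (limma adjusted p of 0.165, 0.0706 and 0.0822). With the replicate number as a block the adjusted p of Ubn2 was 0.0694. No wild-type library shares the number of the third control library, so the block gave the same fold change as leaving that library out. Asf1b, an H3-H4 chaperone of proliferating cells, was at 1273 and 1096 in the wild-type and 393, 353 and 342 in the control libraries (log2 fold change 1.70 ± 0.08 (SE), limma adjusted p = 1.95e-11). H2afx, the variant phosphorylated at DNA breaks, was at 2086 and 1928 in the wild-type and 921, 881 and 868 in the control libraries (log2 fold change 1.17 ± 0.06 (SE), limma adjusted p = 2.23e-11). Dek, a chromatin protein that binds H3.3, was at 4182 and 3997 in the wild-type and 2084, 1949 and 2059.8 in the control libraries (log2 fold change 1.01 ± 0.05 (SE), limma adjusted p = 1.69e-11). H1f0, the linker histone best known from resting cells, was at 16095 and 16095 in the wild-type and 8752, 8826 and 8478 in the control libraries (log2 fold change 0.89 ± 0.04 (SE), limma adjusted p = 1.13e-11). In all 4 the wild-type libraries lay above every control library. The loaders specific to H3.3 did not pass the test: Hira was at 1452 and 1368 in the wild-type and 1548, 1467 and 1434 in the control libraries (limma adjusted p = 0.286). Daxx was at 905 and 840.4 in the wild-type and 847, 824 and 801 in the control libraries (limma adjusted p = 0.284). Atrx was at 6681 and 6919 in the wild-type and 7329, 6212 and 7498 in the control libraries (limma adjusted p = 0.638). Without the second control library Atrx passed as lower (log2 fold change -0.12, limma adjusted p = 0.00512).

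The 2 Cdkn2 genes were almost silent in the wild-type line. Cdkn2a, which encodes p16INK4a and p19ARF, stood at 0 and 1.07 in the wild-type and 178, 186 and 202 in the control libraries (limma adjusted p = 6.48e-12). Cdkn2b, which encodes p15INK4b, was at 3.97 and 8.53 in the wild-type and 229, 253 and 249 in the control libraries (limma adjusted p = 9.27e-12). The groups lie far apart for both, and the wild-type values are a handful of reads, so no fold is given. Of the neighbours in the RefSeq gene order, Mtap, the methylthioadenosine phosphorylase gene next to Cdkn2a, was expressed in both states, at 4089 and 4010.1 in the wild-type and 8996, 9493 and 9437 in the control libraries (log2 fold change -1.20 ± 0.04 (SE), limma adjusted p = 3.73e-13). Dmrta1, the next gene on the other side, was at under 2 in all 5 libraries. Further out, Elavl2 was at 21.8 and 18.1 in the wild-type and 115, 95.4 and 93.4 in the control libraries (log2 fold change -2.29 ± 0.20 (SE), limma adjusted p = 4.76e-08). Tusc1 was at 297 and 282 in the wild-type and 295, 295 and 265 in the control libraries with overlapping groups. In H3.3K36M cells Cdkn2a was at 0.877 and 0 and Cdkn2b at 2.19 and 0, as low as in the tagged wild-type line, while Mtap was at 11308 and 11787. In HMT siRNA cells Cdkn2a was at 333, 308 and 321 and Cdkn2b at 240.1, 257 and 234.

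Of 25 p53 targets and cell cycle inhibitors tested, 14 were lower and 7 higher, against 27.4% and 29.2% of all genes, with a median of -0.27. Cdkn1a, which encodes the inhibitor p21, was at 4501 and 4596 in the wild-type and 5730.4, 5862 and 5255 in the control libraries (log2 fold change -0.30 ± 0.05 (SE), limma adjusted p = 6.02e-05), a small and non-overlapping difference. Gadd45a, a stress-induced growth arrest gene, was at 399 and 447 in the wild-type and 1132, 1212 and 1084 in the control libraries (log2 fold change -1.43 ± 0.07 (SE), limma adjusted p = 2.76e-11). Sesn2, a stress-induced inhibitor of mTORC1, was at 604 and 556 in the wild-type and 1281, 1299 and 1224 in the control libraries (log2 fold change -1.13 ± 0.06 (SE), limma adjusted p = 1.08e-10). The groups did not overlap in these 3. Mdm2, the ubiquitin ligase of p53 and a p53 target, was lower as well (log2 fold change -0.41 ± 0.06 (SE), limma adjusted p = 1.68e-05). The 7 higher members included Cdkn2c, another INK4 inhibitor, at 774 and 784 in the wild-type and 524, 532 and 617 in the control libraries (log2 fold change 0.49 ± 0.08 (SE), limma adjusted p = 5.29e-05). Rbl1, the pocket protein p107, was at 934 and 789 in the wild-type and 442, 430.4 and 422 in the control libraries (log2 fold change 0.99 ± 0.08 (SE), limma adjusted p = 1.34e-08). Both of these were higher in every wild-type library. Trp53 itself was at 2172 and 2248 in the wild-type and 2463, 2427 and 2292 in the control libraries and did not pass the test (limma adjusted p = 0.061). It passed as lower without the third control library (log2 fold change -0.15, limma adjusted p = 0.0228). The replicate number as a block gave the same fold change (limma adjusted p = 0.0385) and is not a separate check.

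Cartilage matrix genes were higher in the tagged line. Of 21 cartilage matrix genes tested, 16 were higher, 12 of them at least 2-fold, and 1 was lower, with a median of 1.24. Over all genes these shares were 29.2%, 6.85% and 27.4%. With either wild-type library left out 20 rather than 21 cartilage matrix genes passed the filter. The list summed to 138430.0 to 138877 in the wild-type and 50668 to 53589.8 in the control libraries. Col2a1, the defining collagen of cartilage, was at 75214 and 72957 in the wild-type and 24283, 23157 and 24144 in the control libraries (log2 fold change 1.63 ± 0.04 (SE), limma adjusted p = 5.68e-15). Acan, its main aggregating proteoglycan, was at 433 and 427 in the wild-type and 119.9, 104 and 118 in the control libraries (log2 fold change 1.91 ± 0.11 (SE), limma adjusted p = 1.87e-10). Hapln1, the link protein that ties it to hyaluronan, was at 1118 and 1084 in the wild-type and 30.4, 27.6 and 27.7 in the control libraries (log2 fold change 5.22 ± 0.13 (SE), limma adjusted p = 3.75e-15). The groups did not overlap for any of the 3. Fmod, a collagen-binding proteoglycan, was at 2535 and 2683 in the wild-type and 108, 91.6 and 107 in the control libraries (log2 fold change 4.66 ± 0.09 (SE), limma adjusted p = 1.91e-16). Prg4, the joint lubricant lubricin, was at 303 and 302 in the wild-type and 10.7, 6.34 and 3.49 in the control libraries (limma adjusted p = 3.76e-10), with too few control reads for a fold. Col10a1, the collagen of hypertrophic chondrocytes, was at 271 and 267 in the wild-type and 57.7, 59.0 and 69.2 in the control libraries (log2 fold change 2.10 ± 0.14 (SE), limma adjusted p = 1.38e-09). These 3 likewise lay higher in both wild-type libraries. Col11a1, a partner of type II collagen, was at 37282 and 38228 in the wild-type and 16155, 15016 and 16819 in the control libraries (log2 fold change 1.24 ± 0.05 (SE), limma adjusted p = 9.77e-13). Comp, a cartilage oligomeric matrix protein, was at 282 and 317 in the wild-type and 153, 181 and 175 in the control libraries (log2 fold change 0.82 ± 0.11 (SE), limma adjusted p = 8.81e-06). Col9a3, a chain of type IX collagen, was the single member lower by the test, at 900.5 and 991 in the wild-type and 1019.8, 1122 and 1128 in the control libraries (log2 fold change -0.20 ± 0.07 (SE), limma adjusted p = 0.0139). That call was lost without the first wild-type library (limma adjusted p = 0.234) and without the third control library (adjusted p = 0.0536).

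The regulators of cartilage moved unequally. Of 15 transcription factors and growth plate signals, 10 were higher and 2 lower, with a median of 0.63. Sox9, the factor that starts chondrogenesis, was at 11852 and 12328 in the wild-type and 8054, 7722 and 7605 in the control libraries (log2 fold change 0.63 ± 0.04 (SE), limma adjusted p = 1.98e-09). Its partner Sox6 was at 2261 and 2472 in the wild-type and 581, 549.6 and 609 in the control libraries (log2 fold change 2.03 ± 0.06 (SE), limma adjusted p = 7.54e-14). Sox5, the other partner, went the opposite way, at 8.94 and 4.27 in the wild-type and 75.9, 36.4 and 74.4 in the control libraries (limma adjusted p = 1.81e-06). The 3 SOX genes thus differed without overlap, in unlike directions. Pth1r, the receptor of parathyroid hormone-related protein, was at 863 and 829 in the wild-type and 74.4, 51.4 and 65.9 in the control libraries (log2 fold change 3.72 ± 0.14 (SE), limma adjusted p = 5.02e-13). Fgfr3, the FGF receptor that restrains growth plate proliferation, was at 1441 and 1555 in the wild-type and 499, 453 and 463 in the control libraries (log2 fold change 1.66 ± 0.07 (SE), limma adjusted p = 2.1e-12). Ptch1, the hedgehog receptor and target, was at 1163 and 1148 in the wild-type and 731, 587 and 754 in the control libraries (log2 fold change 0.75 ± 0.09 (SE), limma adjusted p = 2.34e-06). Runx2, which drives hypertrophy and bone, was slightly lower at 1861 and 1926 in the wild-type and 2158, 2013 and 2085 in the control libraries (log2 fold change -0.14 ± 0.05 (SE), limma adjusted p = 0.0282). Its call was lost without either wild-type library or the first control library (limma adjusted p of 0.243, 0.0869 and 0.10) and with the replicate number as a block (adjusted p = 0.0642).

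Other matrix genes followed by family. Of 19 fibrillar and network collagens 16 were higher and 1, Col18a1, was lower, against 29.2% and 27.4% of all genes. Their median was 0.69. Col8a1, a short-chain network collagen, was at 7073 and 7083 in the wild-type and 1074, 1024 and 1183 in the control libraries (log2 fold change 2.70 ± 0.06 (SE), limma adjusted p = 4.6e-16). Col5a3, a minor fibrillar chain, was at 7214 and 7487 in the wild-type and 1693, 1720.4 and 1745 in the control libraries (log2 fold change 2.09 ± 0.05 (SE), limma adjusted p = 5.24e-16). Col1a1 was at 193580.0 and 187293 in the wild-type and 195771, 179726 and 165979 in the control libraries and did not pass (limma adjusted p = 0.231), but passed as higher without the first control library (log2 fold change 0.14, limma adjusted p = 0.0317) and as lower after quantile normalisation (-0.26, adjusted p = 1.46e-05). Of 26 proteoglycans, glycoproteins and hyaluronan genes 14 were higher and 6 lower. Thbs1, the matricellular glycoprotein thrombospondin 1, was at 24939 and 24808 in the wild-type and 2549.7, 2196 and 2461 in the control libraries (log2 fold change 3.37 ± 0.05 (SE), limma adjusted p = 4.14e-17). Prelp, a leucine-rich proteoglycan, was at 42472 and 42695 in the wild-type and 9126, 9129 and 9079.8 in the control libraries (log2 fold change 2.22 ± 0.04 (SE), limma adjusted p = 1.31e-16). In the opposite direction Lamb1, the laminin beta 1 chain of basement membranes, was at 599 and 657 in the wild-type and 4668, 4506 and 4538 in the control libraries (log2 fold change -2.86 ± 0.05 (SE), limma adjusted p = 1.31e-16). The laminin genes Lama4 and Lamc1 were lower too, with log2 fold changes of -0.21 and -0.20.

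Of 19 elastic fibre genes 9 were higher and 8 lower, against 29.2% and 27.4% of all genes. Eln, which encodes elastin, was at 24890.4 and 26526 in the wild-type and 4547, 4584 and 4196 in the control libraries (log2 fold change 2.53 ± 0.05 (SE), limma adjusted p = 1.66e-16). Fbln1, fibulin 1, was at 276 and 245 in the wild-type and 16.7, 7.53 and 15.6 in the control libraries (log2 fold change 4.27 ± 0.28 (SE), limma adjusted p = 1.03e-09). Efemp1, fibulin 3, was at 15.9 and 18.1 in the wild-type and 194, 159 and 145 in the control libraries (log2 fold change -3.21 ± 0.19 (SE), limma adjusted p = 1.97e-10). None of the 3 had overlapping groups. Among 22 matrix proteases and inhibitors 8 were higher and 10 lower. Timp3, a matrix-bound inhibitor of metalloproteinases, was at 98406 and 100010.0 in the wild-type and 38116, 35308 and 38338 in the control libraries (log2 fold change 1.41 ± 0.05 (SE), limma adjusted p = 7.62e-14). The aggrecanase Adamts4 was at 83.4 and 90.7 in the wild-type and 381, 401 and 413 in the control libraries (log2 fold change -2.18 ± 0.10 (SE), limma adjusted p = 1.28e-11). The related Adamts1 was at 7987 and 7836 in the wild-type and 16258, 15879.5 and 15996 in the control libraries (log2 fold change -1.02 ± 0.04 (SE), limma adjusted p = 1.57e-12). Adam19, a membrane metalloprotease, was at 189.6 and 168 in the wild-type and 944, 947 and 992 in the control libraries (log2 fold change -2.42 ± 0.08 (SE), limma adjusted p = 1.05e-13). In these 4 as well every library of 1 group lay above every library of the other.

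The counts for the other mesenchymal fates are read against the 29.2% higher and 27.4% lower over all genes. Of 12 tendon and ligament genes 3 were higher and 3 lower, which is near those shares. Tnmd, the tendon marker tenomodulin, was at 5459.5 and 5627 in the wild-type and 1414, 1477 and 1622 in the control libraries (log2 fold change 1.88 ± 0.06 (SE), limma adjusted p = 3.39e-14). Scx, the transcription factor of tendon progenitors, was at 134 and 138 in the wild-type and 434, 476 and 394 in the control libraries (log2 fold change -1.67 ± 0.10 (SE), limma adjusted p = 3.34e-10). Of 15 osteoblast genes 7 were higher and 5 lower. Spp1, osteopontin, was at 7331 and 7749.7 in the wild-type and 3132, 3019 and 3022 in the control libraries (log2 fold change 1.30 ± 0.05 (SE), limma adjusted p = 2.11e-13). Alpl, the alkaline phosphatase of mineralising cells, was at 48.6 and 40.5 in the wild-type and 1.52, 2.51 and 3.46 in the control libraries. Alpl was near absent in the control cells, so its fold is not given (limma adjusted p = 3.35e-06). In these bone genes no wild-type value fell within the control range. Postn, periostin, was at 8102 and 8399 in the wild-type and 22538, 22393 and 23351 in the control libraries (log2 fold change -1.46 ± 0.04 (SE), limma adjusted p = 2.56e-14). Phex, a regulator of phosphate balance, was at 17.8 and 27.5 in the wild-type and 131, 148 and 194 in the control libraries (log2 fold change -2.76 ± 0.21 (SE), limma adjusted p = 7.52e-09). Dlx5, a homeobox factor of bone formation, was at 180.5 and 183 in the wild-type and 450.3, 438 and 433 in the control libraries (log2 fold change -1.27 ± 0.09 (SE), limma adjusted p = 1.75e-09).

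Of 22 adipocyte genes 10 were higher and 9 lower, with a median of -0.02. Pparg, the factor that commands adipogenesis, was at 715 and 694 in the wild-type and 794, 878 and 903 in the control libraries (log2 fold change -0.28 ± 0.07 (SE), limma adjusted p = 0.00229). Cebpa, its partner, was at 1275 and 1361 in the wild-type and 1002, 921 and 964 in the control libraries (log2 fold change 0.45 ± 0.06 (SE), limma adjusted p = 6.43e-06). Both differences were under 2-fold. The next 4 genes are the largest called changes of the list at a mean of at least 100. The lipid droplet lipase inhibitor G0s2 was at 3003 and 2988 in the wild-type and 791, 847 and 778 in the control libraries (log2 fold change 1.89 ± 0.06 (SE), limma adjusted p = 2.97e-14). Dgat2, which makes triglyceride, was at 1554 and 1632 in the wild-type and 572, 550.3 and 606 in the control libraries (log2 fold change 1.47 ± 0.06 (SE), limma adjusted p = 4.5e-12). Angptl4, an inhibitor of lipoprotein lipase, was at 53.6 and 58.7 in the wild-type and 138, 151 and 156 in the control libraries (log2 fold change -1.38 ± 0.15 (SE), limma adjusted p = 4.16e-07). Lpl, the lipase itself, was at 280.2 and 272 in the wild-type and 93.3, 93.6 and 102 in the control libraries (log2 fold change 1.51 ± 0.12 (SE), limma adjusted p = 1.25e-08). No group overlap was seen in these 6 genes.

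Of 15 contractile genes 9 were lower and 3 (Cald1, Smtn and Tagln) were higher, with a median of -0.77. Without the filter on low values 17 were tested and the median was -0.18, with the same counts. Without either wild-type library or the first control library Cald1 was not called (limma adjusted p of 0.138, 0.158 and 0.0597). Acta2, smooth muscle actin, was at 17563 and 16531 in the wild-type and 33523, 35216 and 33892 in the control libraries (log2 fold change -1.01 ± 0.04 (SE), limma adjusted p = 4.21e-12). Myl9, the regulatory myosin light chain, was at 358 and 357 in the wild-type and 1266, 1297 and 1178 in the control libraries (log2 fold change -1.80 ± 0.07 (SE), limma adjusted p = 4.88e-13). Lmod1, a nucleator of smooth muscle actin, was at 130.1 and 126 in the wild-type and 375, 424 and 479 in the control libraries (log2 fold change -1.72 ± 0.11 (SE), limma adjusted p = 5.74e-10). Tpm2, a tropomyosin, was at 883 and 874 in the wild-type and 1795, 1992 and 1893 in the control libraries (log2 fold change -1.11 ± 0.06 (SE), limma adjusted p = 3.74e-11). All control libraries exceeded both wild-type libraries in these 4. Tagln, the actin binder SM22, ran against them at 411 and 333 in the wild-type and 138, 161 and 164 in the control libraries (log2 fold change 1.26 ± 0.12 (SE), limma adjusted p = 1.03e-07). Of 18 targets of the actin-regulated factors YAP and SRF 11 were lower and 6 higher, against 27.4% and 29.2% of all genes. The 6 higher were Amotl2, Ctgf, Cyr61, F3, Lats2 and Nuak2. Targets of the 2 factors were pooled, so the count gives no direction for either factor alone. Fhl1, a LIM domain protein of muscle, was at 1990.2 and 1976 in the wild-type and 4738, 5081 and 5159 in the control libraries (log2 fold change -1.33 ± 0.05 (SE), limma adjusted p = 3.63e-13). Vcl, the focal adhesion protein vinculin, was at 14147 and 14106 in the wild-type and 23847, 22936 and 25719 in the control libraries (log2 fold change -0.77 ± 0.05 (SE), limma adjusted p = 5.08e-10). Cyr61, a direct YAP target, was at 4807 and 4796 in the wild-type and 3222, 2837 and 3246 in the control libraries (log2 fold change 0.63 ± 0.06 (SE), limma adjusted p = 3.78e-08). The groups did not overlap for Fhl1, Vcl and Cyr61.

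Notch signalling genes were higher: 8 of 12 passed the test as higher, 6 of them at least 2-fold, and none as lower, against 29.2%, 6.85% and 27.4% of all genes, with a median of 0.91. Jag1, a ligand, was at 4849 and 4609.8 in the wild-type and 1804, 1674 and 1638 in the control libraries (log2 fold change 1.47 ± 0.05 (SE), limma adjusted p = 2.93e-13). The receptor Notch1 was at 6229.6 and 6330.0 in the wild-type and 4539, 4062 and 4374 in the control libraries (log2 fold change 0.54 ± 0.05 (SE), limma adjusted p = 6.63e-08). Of the nuclear targets that report the pathway, Hey1 was at 385 and 341 in the wild-type and 42.5, 48.9 and 55.3 in the control libraries (log2 fold change 2.87 ± 0.15 (SE), limma adjusted p = 5.12e-11). Hey2 was at 295 and 302 in the wild-type and 50.1, 76.5 and 69.2 in the control libraries (log2 fold change 2.20 ± 0.16 (SE), limma adjusted p = 5.29e-09). Hes1 was at 998 and 951 in the wild-type and 471, 463 and 455 in the control libraries (log2 fold change 1.07 ± 0.07 (SE), limma adjusted p = 6.18e-10). A ligand, a receptor and all 3 of these targets therefore stood higher in every wild-type library than in any control library. Over all tested genes this held for 37.2%. The 4 members not called were Hes6, Lfng, Notch3 and Notch4. When any 1 control library was left out, 1 member passed as lower, and after quantile normalisation or scaling to equal totals 2 did.

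Of 21 Wnt genes 8 were higher and 9 lower, against 29.2% and 27.4% of all genes, and antagonists were found on both sides. Sfrp1, a secreted Wnt antagonist, was at 212 and 180.2 in the wild-type and 2081, 2122 and 2202 in the control libraries (log2 fold change -3.44 ± 0.07 (SE), limma adjusted p = 4.16e-16). Its relative Sfrp2 was at 4544 and 4485 in the wild-type and 999, 1088 and 1126 in the control libraries (log2 fold change 2.08 ± 0.06 (SE), limma adjusted p = 9.43e-15). Rspo3, an R-spondin that amplifies Wnt signals, was at 90.3 and 82.1 in the wild-type and 1003, 988 and 1065 in the control libraries (log2 fold change -3.55 ± 0.09 (SE), limma adjusted p = 2.18e-15). The groups did not overlap for these 3. The nuclear effector Tcf7 was at 476 and 503 in the wild-type and 92.6, 80.3 and 84.7 in the control libraries (log2 fold change 2.50 ± 0.12 (SE), limma adjusted p = 9.33e-12). Lef1, a second effector, was at 92.3 and 89.6 in the wild-type and 21.2, 37.6 and 31.1 in the control libraries (log2 fold change 1.60 ± 0.24 (SE), limma adjusted p = 2.6e-05). Lgr6, an R-spondin receptor, was at 60.6 and 65.1 in the wild-type and 1.52, 0 and 1.73 in the control libraries, that is, at most 1 read in a control library.

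Of 35 BMP and TGF-beta genes 15 were higher and 11 lower, against 29.2% and 27.4% of all genes. Nog, which encodes the BMP antagonist noggin, was at 248 and 209 in the wild-type libraries and listed at 0 in all 3 control libraries (limma adjusted p = 2.86e-10). Bambi, a decoy receptor of the pathway, was at 815 and 803 in the wild-type and 419, 445 and 449 in the control libraries (log2 fold change 0.89 ± 0.07 (SE), limma adjusted p = 1.44e-08). Fst, the activin antagonist follistatin, was at 558 and 544 in the wild-type and 300.5, 330.0 and 291 in the control libraries (log2 fold change 0.84 ± 0.09 (SE), limma adjusted p = 2.49e-07). Tgfbi, a matrix protein induced by TGF-beta, was at 249 and 293 in the wild-type and 1254, 1259 and 1380.2 in the control libraries (log2 fold change -2.26 ± 0.08 (SE), limma adjusted p = 2.29e-13). The groups of these 4 genes lay apart. Gdf11, a ligand, was at 265 and 271 in the wild-type and 619, 536 and 574 in the control libraries (log2 fold change -1.10 ± 0.08 (SE), limma adjusted p = 6.69e-09). The ligand Bmp4 was at 1979 and 1826 in the wild-type and 1839.6, 1680.5 and 1696 in the control libraries and did not pass (limma adjusted p = 0.0618), though it passed without the first control library (log2 fold change 0.17, limma adjusted p = 0.0274).

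In the IGF axis 5 of 11 genes were higher and 2 lower. Without the first wild-type library 3 were higher, and without any 1 control library 1 was lower. Igfbp5, an IGF-binding protein abundant in mesenchymal cells, was at 0 and 11.7 in the wild-type and 1471, 1511 and 1762 in the control libraries (limma adjusted p = 0.0127). It was low in both wild-type libraries and high in every control library. The adjusted p rose to 0.148 with the replicate number as a block and to between 0.0544 and 0.0592 when a control library was left out. The block and the fit without the third control library gave the same fold change and are not separate checks. Igfbp3 was at 68.5 and 76.8 in the wild-type and 18.2, 16.3 and 15.6 in the control libraries (log2 fold change 2.06 ± 0.25 (SE), limma adjusted p = 2.74e-06). Irs1, the docking protein of the insulin and IGF receptors, was at 12844 and 12965 in the wild-type and 6121, 5125 and 5790.3 in the control libraries (log2 fold change 1.19 ± 0.06 (SE), limma adjusted p = 5.28e-11). The ligand Igf1 was at 4223 and 4502 in the wild-type and 4193, 4069 and 5088 in the control libraries (limma adjusted p = 0.845), with overlapping groups.

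Of 27 growth factor receptors and ligands 11 were higher and 13 lower, against 29.2% and 27.4% of all genes. Hgf, the ligand of the Met receptor, was at 23.8 and 22.4 in the wild-type and 744, 778 and 778 in the control libraries (log2 fold change -4.99 ± 0.11 (SE), limma adjusted p = 4.99e-16). Fgf10, a mesenchymal FGF that signals to epithelium, was at 72.4 and 54.5 in the wild-type and 501, 535 and 538 in the control libraries (log2 fold change -3.04 ± 0.12 (SE), limma adjusted p = 1.02e-12). Gas6, the ligand of Axl, was at 4904 and 4994 in the wild-type and 1008, 998 and 967 in the control libraries (log2 fold change 2.32 ± 0.05 (SE), limma adjusted p = 4.6e-16). These ligands differed without overlap. Pdgfra, a receptor typical of mesenchymal progenitors, was at 4715 and 4857 in the wild-type and 5072, 4821 and 5391 in the control libraries with overlapping groups (limma adjusted p = 0.138). Without the second control library Pdgfra passed as lower (log2 fold change -0.13, limma adjusted p = 0.00775). Of 22 integrins and cadherins 12 were higher and 7 lower, against the same shares over all genes. Itgb4, which pairs with integrin alpha 6, was at 2593 and 2596 in the wild-type and 464, 488 and 517 in the control libraries (log2 fold change 2.40 ± 0.06 (SE), limma adjusted p = 6.16e-15). Itga10, a collagen II receptor of chondrocytes, was at 238 and 251 in the wild-type and 59.7, 64.0 and 67.5 in the control libraries (log2 fold change 1.92 ± 0.14 (SE), limma adjusted p = 3.42e-09). Cdh11, the mesenchymal cadherin, was at 3928 and 4259 in the wild-type and 15785, 14813 and 15421 in the control libraries (log2 fold change -1.91 ± 0.05 (SE), limma adjusted p = 3.45e-15). Itgb8 was at 68.5 and 61.9 in the wild-type and 250.4, 243 and 311 in the control libraries (log2 fold change -2.02 ± 0.13 (SE), limma adjusted p = 1.08e-09). The 4 adhesion genes had no overlapping groups. Thy1, a surface marker of stromal cells, was at 86.5 and 69.3 in the wild-type and 834, 861 and 769.6 in the control libraries (log2 fold change -3.39 ± 0.10 (SE), limma adjusted p = 4.07e-14), a gap far beyond the spread of either group. The stem cell antigen gene Ly6a was at 9658 and 9179.9 in the wild-type and 4845, 5027 and 4543 in the control libraries (log2 fold change 0.97 ± 0.05 (SE), limma adjusted p = 2.71e-11).

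Interferon-stimulated genes were lower in the wild-type line, or higher in the siRNA-treated cells, as a list. Of 41 tested, 23 were lower, 14 of them at least 2-fold, and 2 (Dhx58 and Ifit3) were higher, against 27.4%, 5.19% and 29.2% of all genes, and the median was -0.43. Ifit1, which binds foreign RNA ends, was at 112 and 100.1 in the wild-type and 343, 267 and 291 in the control libraries (log2 fold change -1.49 ± 0.12 (SE), limma adjusted p = 1.75e-08). Isg15, the interferon-induced ubiquitin-like protein, was at 40.6 and 34.3 in the wild-type and 98.6, 99.6 and 109 in the control libraries (log2 fold change -1.43 ± 0.18 (SE), limma adjusted p = 2.64e-06). Bst2, tetherin, was at 212 and 232 in the wild-type and 508, 757 and 529 in the control libraries (log2 fold change -1.40 ± 0.15 (SE), limma adjusted p = 1.62e-05). Every control library lay above both wild-type libraries in these 3. Ifi47, an interferon-induced guanosine triphosphatase, was at 68.5 and 80.0 in the wild-type and 167, 198 and 185 in the control libraries (log2 fold change -1.29 ± 0.14 (SE), limma adjusted p = 4.42e-07). Igtp, a relative, was at 62.1 and 70.6 in the wild-type and 149.7, 137 and 151 in the control libraries (log2 fold change -1.13 ± 0.14 (SE), limma adjusted p = 3.82e-06). Oasl2, an oligoadenylate synthetase relative, was low throughout, at 6.95 and 6.40 in the wild-type and 25.8, 30.1 and 10.4 in the control libraries (log2 fold change -1.46 ± 0.45 (SE), limma adjusted p = 0.0103). Ifit3 was slightly the other way at 719 and 766 in the wild-type and 582, 612 and 646 in the control libraries (log2 fold change 0.28 ± 0.07 (SE), limma adjusted p = 0.0034), a call lost without the second wild-type library (limma adjusted p = 0.0737). Without the second control library 4 members of the list were higher. In the HMT siRNA cells, which also received siRNA, Ifit1 was at 511, 544 and 477, and in the H3.3K36M cells, whose labels name no siRNA, at 101 and 117. Isg15 was at 191, 208 and 167 after HMT siRNA and at 49.9 and 55.8 with H3.3K36M. Bst2 was at 654, 732 and 559 after HMT siRNA and at 944 and 989 with H3.3K36M. In the H3.3K36M cells Ifit1 thus lay within the range of the wild-type libraries or just above it, whereas Bst2 lay above every control library. Ifi47 was at 200.3, 192 and 194 after HMT siRNA and at 159 and 174 with H3.3K36M, that is, at about the control level in both. Igtp was at 204, 206 and 168 and 91.9 and 93.8. Oasl2 was at 91.9 ± 10.1 (SD, n = 3) and 57.3 ± 10.4 (SD, n = 2), above every baseline library in both. The part of siRNA delivery in these levels was not tested, since the labels give no cells of either kind with the other treatment.

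Promoters of 2 of these genes are printed because interferon-stimulated genes are known for a response element bound by ISGF3 and related factors. Capitals mark the letters TTTC, 2 bases of any kind and TTTC again, and neighbouring matches can overlap. Both stretches are the 150 bases before the RefSeq start in GRCm38.p6: Ifit1 at chr19:34640739-34640888, forward strand, and Gbp3, a guanylate-binding protein, at chr3:142559894-142560043, forward strand.
Ifit1: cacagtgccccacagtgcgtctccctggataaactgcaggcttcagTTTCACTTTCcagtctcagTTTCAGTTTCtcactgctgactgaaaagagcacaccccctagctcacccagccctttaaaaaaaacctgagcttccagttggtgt
Gbp3: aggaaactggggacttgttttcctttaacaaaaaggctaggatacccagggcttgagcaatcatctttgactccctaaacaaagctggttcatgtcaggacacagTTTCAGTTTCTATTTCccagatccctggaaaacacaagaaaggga
On either strand the letters were found within the 300 bases of 18 of the 32 list members with a promoter in the table (56.25%), of 3.627% of tested genes and of 3.443% of all promoters. Gbp3 was at 26.2 and 25.6 in the wild-type and 92.2, 90.3 and 80.8 in the control libraries (log2 fold change -1.72 ± 0.19 (SE), limma adjusted p = 8.81e-07) and was chosen for display after its values were seen. Both printed genes were picked from members whose 150 bases held the letters, so their presence there was fixed by the choice.

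Counts for the remaining inflammatory, small RNA and immediate early genes are again read against 29.2% higher and 27.4% lower over all genes. Of 16 cytokines and chemokines 7 were higher and 2 lower. The lower count was 4 without the third control library and 1 without the first wild-type, the first control or the second control library. Cx3cl1, a membrane-bound chemokine, was at 1272 and 1347 in the wild-type and 849, 791 and 795 in the control libraries (log2 fold change 0.69 ± 0.06 (SE), limma adjusted p = 4.72e-08). Ptgs2, the inducible prostaglandin synthase, was at 280.0 and 247 in the wild-type and 699.6, 571 and 690.1 in the control libraries (log2 fold change -1.30 ± 0.10 (SE), limma adjusted p = 3.94e-09). Of 13 small RNA pathway genes, through which siRNAs act, 4 were higher and 2 lower and none reached 2-fold. The lower count was 5 without the second control library and 1 without the first control or either wild-type library. Dicer1, which cuts small RNAs to length, was at 2786 and 2815 in the wild-type and 2486, 2250.1 and 2305 in the control libraries (log2 fold change 0.26 ± 0.05 (SE), limma adjusted p = 0.000443). Eif2c1, the Argonaute 1 gene, was at 2085 and 2132 in the wild-type and 2619, 2399.6 and 2647 in the control libraries (log2 fold change -0.28 ± 0.05 (SE), limma adjusted p = 0.00027). Both differences were small but without overlap. Among 23 immediate early genes 6 were higher and 7 lower, near the shares over all genes. Fos was at 208 and 288 in the wild-type and 112, 82.8 and 123 in the control libraries (log2 fold change 1.22 ± 0.17 (SE), limma adjusted p = 1.38e-05). Atf3, a stress-induced factor, was at 64.5 and 68.3 in the wild-type and 171, 219.6 and 213 in the control libraries (log2 fold change -1.58 ± 0.14 (SE), limma adjusted p = 5.03e-08). Dusp6, the ERK phosphatase induced by ERK signals, was at 92.3 and 103 in the wild-type and 337, 314 and 323 in the control libraries (log2 fold change -1.72 ± 0.11 (SE), limma adjusted p = 5.21e-10).

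Ribosomal protein genes were lower by a small amount. Of 78 genes 75 were lower and 1 higher, with a median of -0.46, and the list took 4.76% to 4.84% of the signal in the wild-type and 6.70% to 7.39% in the control libraries. Rps20 was at 16024 and 15329.9 in the wild-type and 27816, 31562 and 28189 in the control libraries (log2 fold change -0.89 ± 0.05 (SE), limma adjusted p = 2.03e-10). Rpl23a was at 13484 and 13773 in the wild-type and 22983, 25666 and 23489.7 in the control libraries (log2 fold change -0.82 ± 0.05 (SE), limma adjusted p = 2.58e-10). Rpl34, the single higher member, was at 4830.5 and 3345 in the wild-type and 236, 183 and 170.1 in the control libraries (log2 fold change 4.36 ± 0.22 (SE), limma adjusted p = 6.74e-05). Without the second wild-type library 2 members were higher. Rps27, which did not pass, was at 0 and 0.0107 in the wild-type and 433, 358 and 0.0173 in the control libraries. The third control library was alone at nearly 0 in its group, and without it Rps27 passed as lower (limma adjusted p = 8.88e-09). Ribosomal protein genes have many processed copies that share reads, so the levels of Rpl34 and Rps27 are uncertain. Genes of the integrated stress and unfolded protein responses were lower in 21 of 35 and higher in 4, with a median of -0.19. Slc7a11, the cystine transporter, was at 401 and 283 in the wild-type and 1071, 1197 and 1246 in the control libraries (log2 fold change -1.79 ± 0.13 (SE), limma adjusted p = 2.14e-06). Chac1, which degrades glutathione, was at 503 and 499 in the wild-type and 1181, 1107 and 1088 in the control libraries (log2 fold change -1.16 ± 0.06 (SE), limma adjusted p = 9e-11). Trib3, an ATF4-induced pseudokinase, was at 2283 and 2076 in the wild-type and 4071, 4106 and 3689 in the control libraries (log2 fold change -0.86 ± 0.06 (SE), limma adjusted p = 8.78e-10). The groups of these 3 did not overlap.

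Cholesterol synthesis genes were lower in 15 of 25 and higher in 1 (Idi1), with a median of -0.23 and none past 2-fold. Idi1 was not called without the second wild-type library (limma adjusted p = 0.157). Fdps, which makes farnesyl diphosphate, was at 5486 and 5625 in the wild-type and 7937, 8736 and 7615 in the control libraries (log2 fold change -0.54 ± 0.05 (SE), limma adjusted p = 1.52e-07). Tm7sf2, a sterol reductase, was at 353 and 310.3 in the wild-type and 586, 731 and 661 in the control libraries (log2 fold change -0.99 ± 0.09 (SE), limma adjusted p = 1.03e-07). Of 37 glycolysis and hypoxia genes 16 were higher and 13 lower, against 29.2% and 27.4% of all genes. Pfkfb3, which makes the activator of phosphofructokinase, was at 314 and 311 in the wild-type and 812, 826 and 884 in the control libraries (log2 fold change -1.42 ± 0.07 (SE), limma adjusted p = 3.12e-11). Ldhb, a lactate dehydrogenase subunit, was at 330.4 and 312 in the wild-type and 926, 1134 and 991 in the control libraries (log2 fold change -1.65 ± 0.08 (SE), limma adjusted p = 2.4e-11). Vegfa was at 1032 and 1026 in the wild-type and 1996, 1966 and 1874 in the control libraries (log2 fold change -0.92 ± 0.05 (SE), limma adjusted p = 1.68e-10). These 3 had no overlap between groups. Of 52 oxidative phosphorylation genes 33 did not pass the test, with a median of 0.00, and all lay between -0.42 and 0.27 on the log2 scale. Their count of higher members was 11, and 4 to 6 without either wild-type, the first control or the third control library. Their count of lower members was 8, and 4 without the second wild-type library, so no direction is given. Among 32 lysosome and autophagy genes 11 were higher and 11 lower, and 6 and 7 without either wild-type library. Ctsl, the protease cathepsin L, was at 9145 and 9178 in the wild-type and 16532, 17955 and 16262 in the control libraries (log2 fold change -0.88 ± 0.05 (SE), limma adjusted p = 6.53e-11).

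The genes that write and read H3K36 methylation, which the other arms of the series perturb, were compared between the 2 baselines as well. Of 9 methyltransferases 3 were higher and 2 lower, none by 2-fold, against 29.2% and 27.4% of all genes. Their log2 fold changes lay between -0.40 and 0.48. Whsc1, which dimethylates H3K36, was at 2073 and 2047 in the wild-type and 1592, 1565 and 1607 in the control libraries (log2 fold change 0.38 ± 0.05 (SE), limma adjusted p = 5.65e-06). Setd2, the enzyme that trimethylates H3K36, was at 3596 and 3635 in the wild-type and 3225, 3114 and 3401 in the control libraries (log2 fold change 0.16 ± 0.05 (SE), limma adjusted p = 0.0109). Nsd1 was at 4209 and 4225 in the wild-type and 4770.4, 4392 and 5007 in the control libraries (log2 fold change -0.16 ± 0.05 (SE), limma adjusted p = 0.0138). The calls for Setd2, Nsd1 and Ash1l were lost when either wild-type library was left out, with adjusted p between 0.0626 and 0.103, and the counts of higher and lower methyltransferases were then 1 and 1. Nsd1 was also lost without the third control library (adjusted p = 0.0646) and with the replicate number as a block (adjusted p = 0.0775). Both of those fits gave the same fold change and are not separate checks. Of 22 demethylases and readers 8 were higher and 4 lower, 1 in each direction by at least 2-fold. Their log2 fold changes ran from -1.88 to 1.32, a wider range than that of the methyltransferases. Kdm4a, an H3K36 and H3K9 demethylase, was at 3190.2 and 3229 in the wild-type and 5052, 5134 and 5142 in the control libraries (log2 fold change -0.67 ± 0.04 (SE), limma adjusted p = 5.99e-10). Psip1, a reader of methylated H3K36, was at 3089.7 and 2950.0 in the wild-type and 2023, 1839 and 1922 in the control libraries (log2 fold change 0.65 ± 0.05 (SE), limma adjusted p = 1.36e-08). The count of lower members was 2 without either wild-type library.

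Of 32 Polycomb genes, which lay down H3K27 methylation or bind it, 9 were higher and 7 lower, no more than the shares over all genes (29.2% and 27.4%), and 16 did not pass. Phf19, a Polycomb partner that binds methylated H3K36, was at 242 and 244 in the wild-type and 100.2, 96.6 and 93.4 in the control libraries (log2 fold change 1.32 ± 0.12 (SE), limma adjusted p = 8.09e-08). Ezh2, the H3K27 methyltransferase, was at 1267 and 1205 in the wild-type and 979, 878 and 1020.5 in the control libraries (log2 fold change 0.37 ± 0.07 (SE), limma adjusted p = 0.000179). Kdm6b, an H3K27 demethylase, was at 1496 and 1665 in the wild-type and 2586, 2483 and 2506 in the control libraries (log2 fold change -0.68 ± 0.05 (SE), limma adjusted p = 1.2e-08). Without either wild-type library 4 were lower. Of 39 Hox genes 12 passed the filter, 4 were higher and 6 lower, against 29.2% and 27.4% of all genes. Hoxc13, a homeobox gene of hair and nail, was at 478 and 429 in the wild-type and 0, 6.27 and 1.73 in the control libraries. Hoxc9 was at 51.6 and 57.6 in the wild-type and 0, 0 and 1.73 in the control libraries. In both the control values were of a few reads or 0. Hoxa4 was at 191 and 189.8 in the wild-type and 273, 257 and 251 in the control libraries (log2 fold change -0.45 ± 0.10 (SE), limma adjusted p = 0.00106). Hoxa10 was at 105 and 114 in the wild-type and 199, 174 and 149 in the control libraries (log2 fold change -0.65 ± 0.14 (SE), limma adjusted p = 0.000689). With 1 wild-type library left out 9 rather than 12 Hox genes could be tested, because genes high in the wild-type line alone then fail the filter. None of the 9 was called higher, and 4 were lower without the first and 3 without the second.

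Among 39 mesenchymal patterning factors 19 were lower and 9 higher, with a median of -0.18. Msx1, a homeobox factor of progenitor cells, was at 501 and 558 in the wild-type and 138, 156 and 157 in the control libraries (log2 fold change 1.81 ± 0.10 (SE), limma adjusted p = 1.53e-10). Foxd1, a forkhead factor of stromal progenitors, was at 3059.5 and 2958 in the wild-type and 1072, 1048 and 956 in the control libraries (log2 fold change 1.55 ± 0.06 (SE), limma adjusted p = 5.05e-13). Osr1, a zinc finger factor of lateral and intermediate mesoderm, was at 1247 and 1228 in the wild-type and 2786, 2560.0 and 2724 in the control libraries (log2 fold change -1.12 ± 0.05 (SE), limma adjusted p = 9.33e-12). Nr2f1, an orphan nuclear receptor, was at 1055 and 1132 in the wild-type and 2417, 2463 and 2289 in the control libraries (log2 fold change -1.13 ± 0.05 (SE), limma adjusted p = 1.58e-11). In all 4 the groups were apart. Of 14 imprinted genes 6 were higher and 3 lower, against 29.2% and 27.4% of all genes, and 3 members held wide gaps. Dlk1, a Notch-like transmembrane protein of progenitors, was at 356 and 352 in the wild-type and 39.5, 21.3 and 22.5 in the control libraries (log2 fold change 3.68 ± 0.22 (SE), limma adjusted p = 3.02e-10). Mest was at 228 and 211 in the wild-type and 3718, 3926 and 4097 in the control libraries (log2 fold change -4.15 ± 0.06 (SE), limma adjusted p = 1.44e-17). Peg3, a zinc finger protein, was at 7.94 and 9.60 in the wild-type and 301, 261 and 296 in the control libraries (log2 fold change -4.88 ± 0.17 (SE), limma adjusted p = 2.93e-13). No values of the 2 groups overlapped for these.

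**Figure D3:**
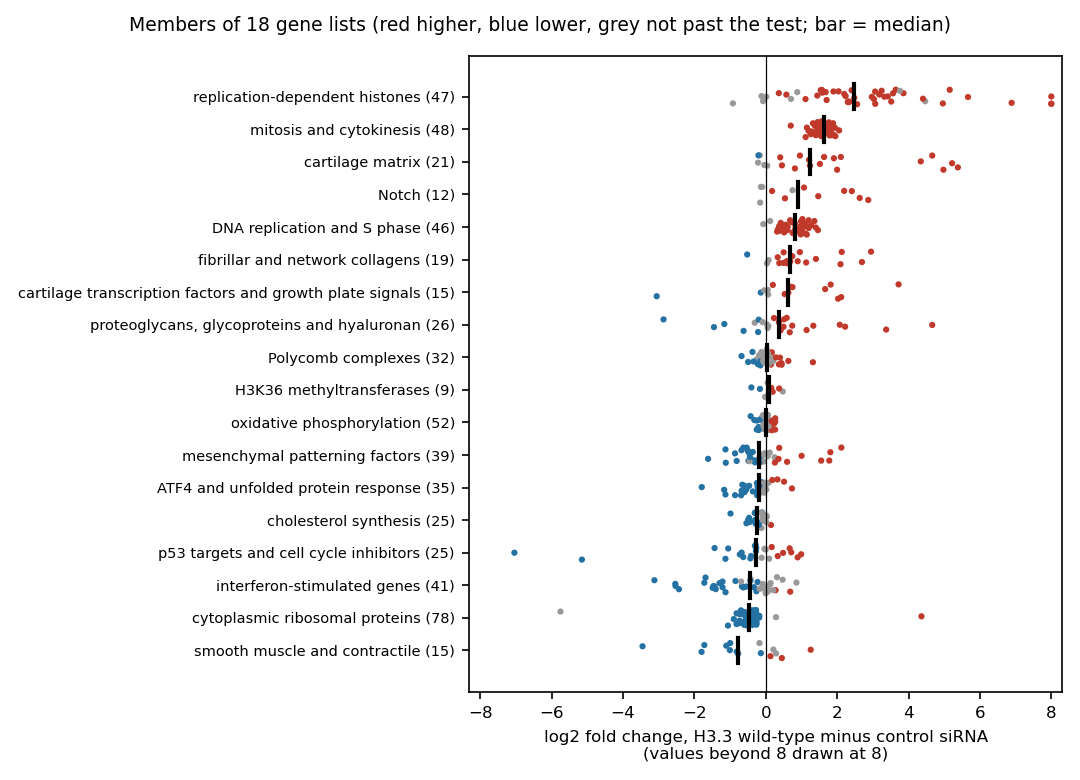
Each point is a tested member of 1 of 18 gene lists (number tested in brackets); the horizontal axis is the log2 fold change, wild-type minus control, red points are higher and blue lower by the test, grey points did not pass, and black bars are medians. The bars run from 2.48 for replication-dependent histones and 1.63 for mitosis down to -0.46 for ribosomal proteins and -0.77 for contractile genes.

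Some other single genes also stood far apart. Fxyd6, a regulator of the sodium pump, was at 1299.8 and 1331 in the wild-type and 12.1, 18.8 and 17.3 in the control libraries (log2 fold change 6.29 ± 0.18 (SE), limma adjusted p = 1.64e-14). Lars2, the mitochondrial leucyl-tRNA synthetase, was at 316453 and 208788 in the wild-type and 4455, 4585 and 4774 in the control libraries (log2 fold change 5.80 ± 0.22 (SE), limma adjusted p = 0.000227) and made up 0.839% to 1.26% of the signal in the wild-type and 0.0183% to 0.0197% in the control libraries. The 2 wild-type libraries also differed from each other for Lars2, and the 2 H3.3K36M libraries held 41602 and 9858. The level of Lars2 is thus uncertain within both groups, and what its reads reflect was not tested. Gria3, a glutamate receptor subunit, was at 14.9 and 10.7 in the wild-type and 431, 455 and 444 in the control libraries (log2 fold change -5.03 ± 0.15 (SE), limma adjusted p = 4.59e-14). Ptprz1, a receptor tyrosine phosphatase, was listed at 0 in both wild-type libraries and was at 319, 339 and 299 in the control libraries (limma adjusted p = 3.55e-14). The predicted gene Gm14308 was likewise listed at 0 against 209, 226 and 221 (limma adjusted p = 3.07e-13).

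By a rule of a level under 5 in every library of 1 group and of at least 100 in every library of the other, 6 genes were near absent in the control cells (0.048% of those tested) and 6 in the wild-type line (0.048%). The first set was Hist1h3a, Hist1h3b, Homer2, Krt14, Matn1 and Nog. Krt14, a keratin of basal epithelium, was at 146 and 129 in the wild-type libraries and listed at 0 in every control library (limma adjusted p = 3.63e-09); Epcam was listed at 0 in all 5. Matn1, a matrix protein of cartilage, was at 119 and 130.1 in the wild-type and 3.04, 2.51 and 3.46 in the control libraries. Homer2, a scaffold protein, was at 109 and 115 in the wild-type and 1.52, 0 and 1.73 in the control libraries. The second set was Arhgef5, Cdkn2a, Gm14308, Ptprz1, Rnf128 and Slc8a1. Slc8a1, a sodium-calcium exchanger, was at 1.00 and 0.395 in the wild-type and 269, 233 and 247 in the control libraries. Arhgef5, a guanine nucleotide exchange factor, was at 4.96 and 3.20 in the wild-type and 253, 273 and 247 in the control libraries. Rnf128, a ubiquitin ligase, was at 2.98 and 3.20 in the wild-type and 173, 196 and 209 in the control libraries. None of these got a fold, because the low group held only a few reads.

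The levels in the 2 perturbed states are given here beside those of their own baselines. The part of the baselines in either response was not tested. H3.3K36M shares the wild-type libraries with the comparison above and HMT siRNA the control libraries, so the values are given side by side and are not independent. Mki67 was at 16419 ± 654 (SD, n = 2) in the K36M mutant line and at 12419.7 ± 703 (SD, n = 3) after HMT siRNA, from baselines of 13194 and 12749 and of 4858, 3716 and 4176; the log2 fold changes against those baselines were 0.34 and 1.55. Mcm5 reached 5354 ± 198 and 3555 ± 147, with log2 fold changes of 0.81 and 1.62. For Nuf2 they were -0.17 from the wild-type and 1.32 from the control baseline. The mitosis list summed to 199412 to 203210.0 with H3.3K36M and to 133756 to 142278 with HMT siRNA. Replication-dependent histones went the other way. That list summed to 15769 to 17177 with H3.3K36M, against 26387 to 27328 in the wild-type libraries. With HMT siRNA it summed to 1777 to 2012, against 5010 to 5480 in the control libraries.

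For cartilage the 2 perturbed states were both under their baselines. Col2a1 was at 6483 ± 314 (SD, n = 2) with H3.3K36M and 8076 ± 378 (SD, n = 3) with HMT siRNA, log2 fold changes of -3.51 and -1.56. Sox9 was at 1767 ± 63.5 and 3124 ± 131, changes of -2.77 and -1.32. Fmod was at 32.1 ± 12.6 and 5.86 ± 1.87, changes of -6.35 and -3.95, from baselines that themselves differed by 4.66. The cartilage matrix list summed to 13365 to 13552 and to 22032 to 22835.

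For other genes too the 2 baselines lay at different levels. Thy1 was at 885 ± 6.25 with H3.3K36M and 789 ± 28.5 with HMT siRNA, near its control level and above its wild-type level. The log2 fold changes for Thy1 against these baselines were 3.50 with H3.3K36M and -0.06 with HMT siRNA. Lamb1 was at 7347 ± 298 and 8704 ± 214, changes of 3.55 and 0.93. Thbs1 was at 2256 ± 18.8 and 3342 ± 203, changes of -3.46 and 0.48. Myl9 was at 1511 ± 7.76 and 966 ± 36.3, changes of 2.08 and -0.37. Igfbp5 was at 345 ± 20.8 and 287 ± 27.1, above its wild-type and under its control baseline. Mest was at 57.6 ± 1.05 and 1059 ± 52.0, under both baselines, with changes of -1.91 and -1.88. Spp1 was at 32568 ± 2240.5 and 33657 ± 734, above both, with changes of 2.11 and 3.46. All of these values are means ± SD of 2 H3.3K36M and 3 HMT siRNA libraries.

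**Figure D4:**
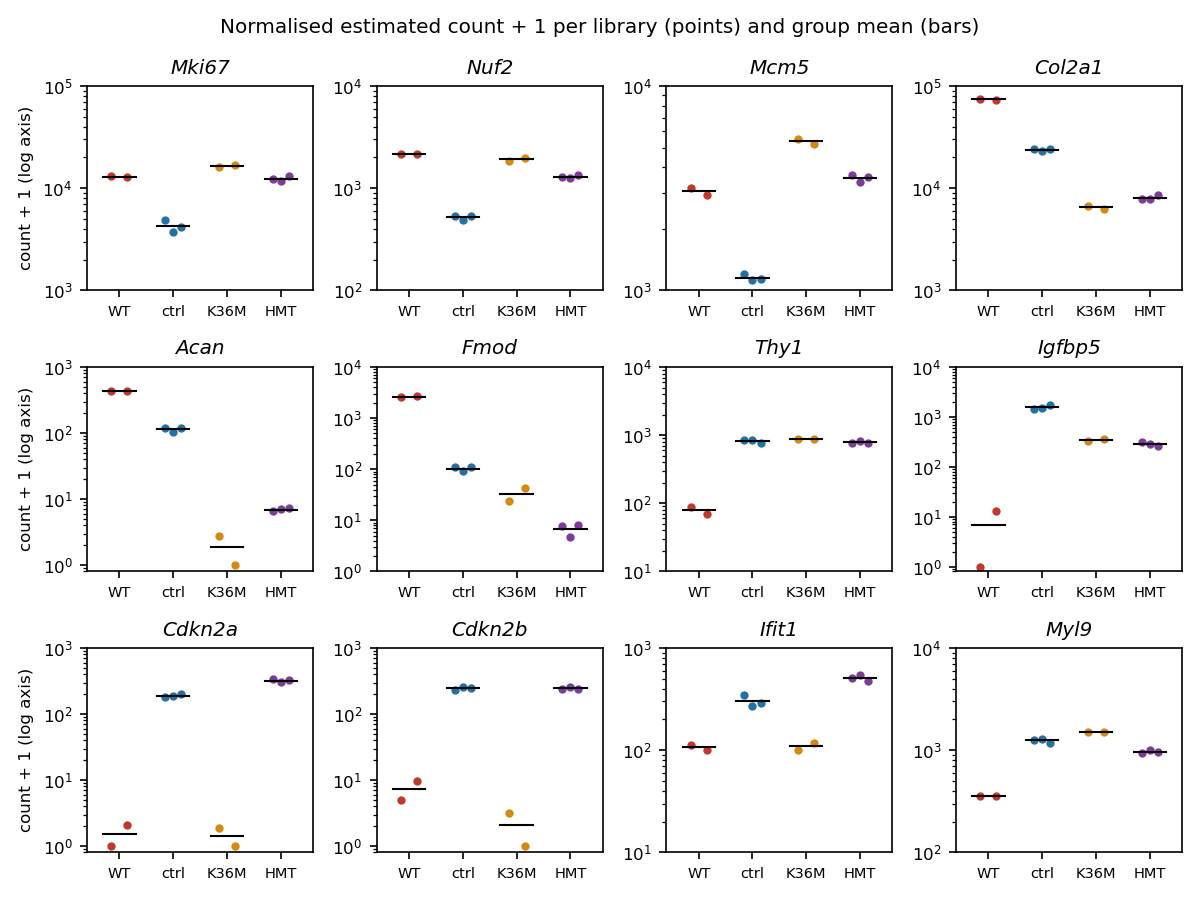
Normalised estimated count + 1 on a log axis for 12 genes in the wild-type (WT, n = 2), control siRNA (ctrl, n = 3), H3.3K36M (K36M, n = 2) and HMT siRNA (HMT, n = 3) libraries; points are libraries and bars are group means. The first 2 groups of each panel are the baselines compared here: Mki67, Nuf2, Mcm5, Col2a1, Acan and Fmod are higher in WT, and Thy1, Igfbp5, Cdkn2a, Cdkn2b, Ifit1 and Myl9 are higher in ctrl.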

How the data were processed

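RNA from cultured C3H10T1/2 cells was extracted with Trizol and made into TruSeq libraries, per the labels' protocols. Bowtie 1.0.0, RSEM 1.2.12 and the mm9 build are named in the submitters' processing notes. The deposited values are a signal: estimated counts per gene that the authors scaled by a factor for each library (median normalisation, per the file headers and names), so they are not raw counts, and reads per library were recovered only as estimates from the value of a single read. The other 2 deposited tables were scaled separately and were not used. Depth was 13993307 to 25322433 estimated reads.

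Values were compared as log2(value + 1) with limma 3.58.1 in R 4.3.3 (eBayes with trend and robust), on the 2 wild-type and 3 control libraries, for genes at 10 or more in at least 2 libraries, with Benjamini-Hochberg adjustment over all 12496 genes and a threshold of 0.05. The script was tested on simulated data. Named genes were the 8 largest changes in each direction with a mean of at least 200 in the higher group and no overlap, up to 4 of the largest called changes per list with a mean of at least 100, and 16 set genes; other genes were added after their values were seen, and some genes are not reported here. The 45 lists and the members were chosen with earlier results of these data known. The fit was repeated under 14 alternatives: pseudocounts, filters, scalings, limma settings, a replicate block and each library left out. Promoter sequences are from RefSeq (GRCm38.p6), matched by symbol for 9980 tested genes; no coordinates of the files' build were used.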

Additional observations from a re-analysis of the deposited data

How the results depend on the processing

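The counts of genes higher, lower and at least 2-fold higher stayed within 1.5 times of their values under all 14 alternatives. The count at least 2-fold lower was 417 instead of 649 when a value of at least 50 in 2 libraries was required, a filter that tested 11168 genes. Leaving out 1 library at a time gave 2580 to 3763 higher, 2635 to 3515 lower, 658 to 875 at least 2-fold higher and 622 to 634 at least 2-fold lower. Deviations from the group means correlated at 0.010 and -0.043 between same-numbered wild-type and control libraries. With 2 wild-type libraries 1 deviation mirrors the other, so this check cannot show whether the numbers pair the libraries. With the replicate number as a block 3433 genes were higher and 3229 lower, 840 and 645 by 2-fold. No wild-type library shares the number of the third control library. The block and the fit without that library therefore gave the same fold changes and are not separate checks. Genes higher were 51.6% of those called, 45.5% after quantile normalisation and 44.1% after scaling to equal totals. Over the named genes and alternatives, 3094 results kept direction and call, 57 lost the call, 14 gained it and 13 changed sign, for causes that were not tested. Vim turned to -0.055 (limma adjusted p = 0.216) and Col1a1 to -0.26 (adjusted p = 1.46e-05) after quantile normalisation. The other sign changes were in Atrx, Col1a2, Igf1 and Tusc1, none of which passed where the sign changed. After quantile normalisation Tusc1 was at -0.023, and after scaling to equal totals Col1a2 was at -0.0094 and Tusc1 at -0.020. With the replicate number as a block Atrx was at 0.011, Igf1 at 0.078 and Tusc1 at -0.029. With 1 library left out Atrx lay between -0.12 and 0.011, Igf1 between -0.083 and 0.078 and Tusc1 between -0.029 and 0.059. Depth limits genes at a few reads in 1 group, and no fold is given where a library of the lower group held 4 reads or fewer.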
